A study of Sus scrofa with 16 samples.

Results

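The genes described here are enzymes that build cholesterol from acetyl-CoA: HMGCS1, FDPS, FDFT1, SQLE, LSS and DHCR7. They were taken as the rows of the count table whose Ensembl identifier carries one of 7 enzyme symbols in the authors' annotation, which found 6 genes of 25880. The symbol IDI1 was not among the 9550 deposited symbols, and the gene that a reference table of gene names gives it (ENSSSCG00000029066) is described beside the 6 enzymes but not counted with them. RNA was sequenced from the whole pituitary of 16 Złotnicka White gilts, an old Polish pig breed, 8 of them in a group of low (LFC) and 8 in a group of high (HFC) feed conversion. Feed conversion is the feed eaten per unit of weight gained, so the HFC pigs used their feed less efficiently. All pigs were labelled with day 180, were fed and housed alike at a test station and were slaughtered at 100 kg. Neither group had a treatment or an altered genotype. The paper gives ages with a spread and states that the pigs came from different farms. By its measurements the HFC pigs of this breed gained weight more slowly, stayed longer in the test and had thicker fat at several points. These traits go with the group label and cannot be told apart from feed conversion here. The groups are those of a label that is headed shear force but holds low or high FCR.

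Most cells of mammals can make cholesterol. HMGCS1 stands at the start of the route to mevalonate, further enzymes turn mevalonate into farnesyl diphosphate, and from there FDFT1 and SQLE lead into the sterols, LSS closes the rings and DHCR7 carries out one of the last reductions. The same farnesyl diphosphate also feeds the isoprenoid branch, which makes lipid anchors of proteins, dolichol and ubiquinone. When sterols in the endoplasmic reticulum run low, SCAP escorts the SREBP transcription factors to be cut and released, and SREBP-2 in particular switches on these enzymes, while the INSIG proteins hold SCAP back. In the pituitary cholesterol is a component of the membranes of hormone granules, and in the nervous tissue of the posterior lobe it is a main component of myelin.

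The total count of a pig was between 6010629 and 11794256 reads, and its median 7803047 for LFC and 9027332 for HFC. Expression is given as CPM, the count of a gene relative to the total of its pig after TMM scaling in edgeR, and a log2 fold change above 0 means higher in the HFC pigs. The tissue label was checked with 11 endocrine marker genes, all with counts, GH1 for example between 23060 and 85940 CPM. Of these markers 1 was higher in HFC and 3 higher in LFC at an unadjusted p of at most 0.05 by edgeR's quasi-likelihood test. Over all genes tested these shares were 7.03% and 4.41%, and 0 of the markers passed after adjustment. The part of endocrine composition in the group differences was not tested. Summed glia and myelin markers (10 genes) were between 196 and 329.8 CPM in 12 pigs, but 1788 CPM in LFC pig 1, 6315 in LFC pig 5, 1360 in LFC pig 7 and 3549 in HFC pig 6. On the first principal component over all genes tested, which held 29.6% of the variance, LFC pigs 4 and 6 and HFC pig 5 stood apart from the other 13. LFC pig 6 and HFC pig 5 also had the lowest totals, 6258650 and 6010629 reads. Blood and vessel markers (5 genes) summed to 1514 CPM in LFC pig 4, 771.6 in LFC pig 6 and 1154 in HFC pig 5. The group medians were 545 CPM (LFC) and 329.3 CPM (HFC), and LFC pig 7, which was not apart, had 942.1 CPM. HBB was 1414, 642.2 and 1033 CPM in the 3 pigs. VWF was 15.4, 14.9 and 17.3 CPM, below its group medians of 16.7 (LFC) and 30.7 (HFC). The part of blood in the values was not tested. Results were therefore also computed without the 4 pigs high in glia and myelin markers and without the 3 pigs apart on that component, both chosen after seeing the data.

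A gene was called where its fold change reached 1.3 and its adjusted p did not exceed 0.05, and none of the enzymes met this. Of the 13621 genes tested, 0 (0.0%) were called by the quasi-likelihood test of edgeR, Benjamini-Hochberg method, the smallest adjusted p being 0.372. At an unadjusted p of at most 0.05, 1 of the 6 enzymes, FDPS, differed, against 1559 genes or 11.4% of all genes tested (958 or 7.03% higher in HFC, 601 or 4.41% higher in LFC). DESeq2 called 29 of 13552 genes (0.214%), none of them an enzyme of the pathway. The log2 fold change was above 0 for 5 of the 6 enzymes with a median of 0.13, compared with 47.9% above 0 and a median of -0.013 over all genes tested. With IDI1 and the other synthesis genes included, 9 of 19 were above 0 (47.4%), with a median of -0.022, near the values over all genes. With counts scaled by total library size the share of unadjusted calls that were higher in HFC was 46.0% in place of 61.4%, and 5 of the 6 enzymes stayed above 0.

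**Figure D1:**
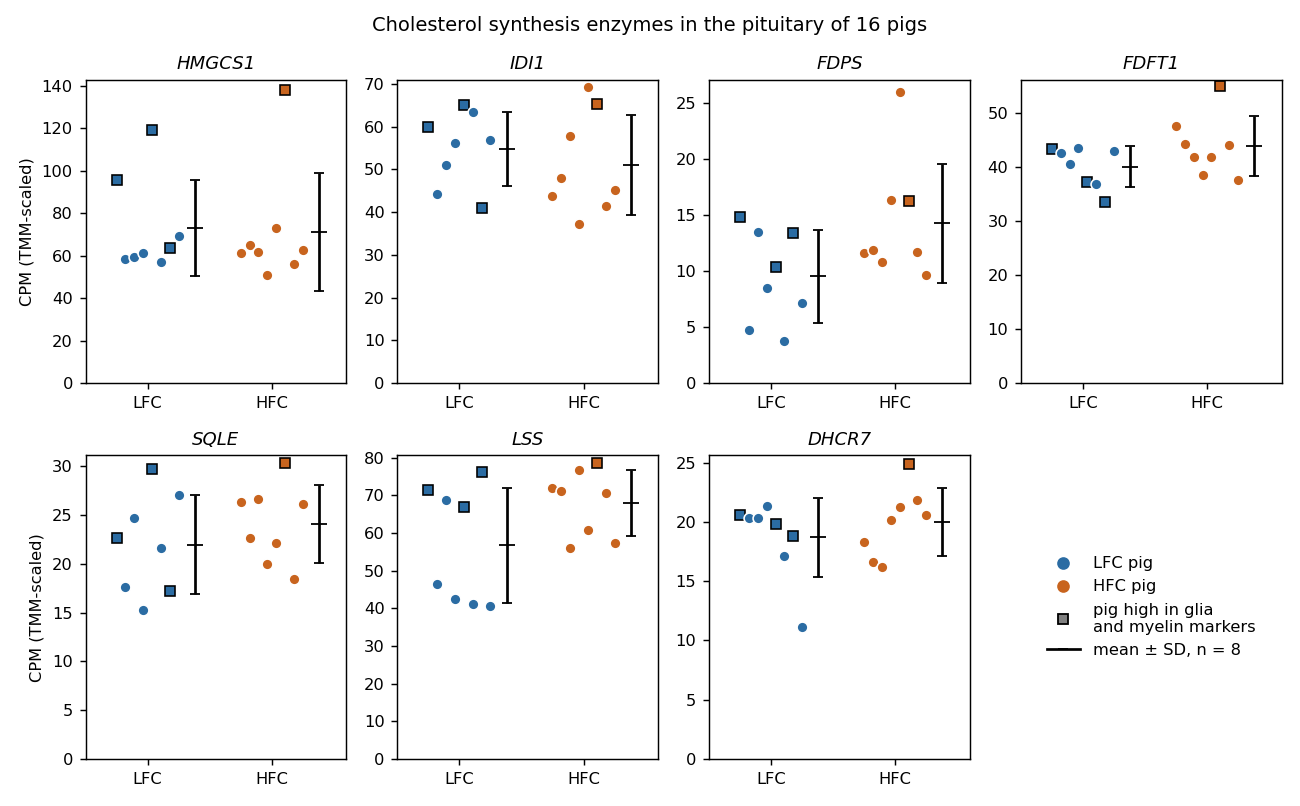
Expression (CPM, TMM-scaled, linear axis from 0) of 7 cholesterol synthesis enzymes in each of the 8 LFC and 8 HFC pigs, with the mean ± SD of each group and squares for the 4 pigs high in glia and myelin markers. The ranges of the groups overlap in every panel, and HMGCS1 reaches 138.1 CPM in HFC pig 6 while 13 pigs lie between 51.1 and 72.9 CPM.

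HMGCS1 (ENSSSCG00000016872, chromosome 16, 27936229 to 27957227 of Sscrofa11.1), the synthase that joins acetyl-CoA units to HMG-CoA, varied between pigs more than between groups. Its expression was lowest at 57.2, median 62.5 and highest at 119.1 CPM in the LFC pigs. In the HFC pigs the lowest was 51.1, the median 62.4 and the highest 138.1 CPM. The medians were thus almost equal and the HFC range contained the whole LFC range. The mean was 73.0 ± 22.4 CPM (SD, n = 8) in LFC and 71.2 ± 27.8 CPM (SD, n = 8) in HFC. The fitted log2 fold change was -0.038 (SE 0.20, 95% interval -0.46 to 0.38), with an adjusted p of 0.938 in the quasi-likelihood test of edgeR, Benjamini-Hochberg method. In fold terms the interval runs from 0.727 to 1.304, and differences inside it are compatible with the values of these pigs. The biological coefficient of variation of HMGCS1 was 0.282, above that of 92.5% of the 2123 genes within 0.5 log2 units of its mean expression, whose median was 0.167.

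The highest values of HMGCS1 belonged to 3 pigs. LFC pig 1 had 95.8, LFC pig 5 had 119.1 and HFC pig 6 had 138.1 CPM of HMGCS1, while the other 13 pigs ended at 72.9 CPM. The same 3 pigs had the 3 highest sums of glia and myelin markers, and the fourth pig high in these markers, LFC pig 7, had 63.9 CPM of HMGCS1, within the range of the rest. Of the 10 markers, 9 were higher in each of the 4 pigs than in any other pig, among them MBP, a structural protein of myelin. MBP was between 578.1 and 2863 CPM in the 4 pigs. GFAP, the filament of astrocytes and of pituicytes, was 632.5 CPM in LFC pig 1, 1487 in LFC pig 5 and 1443 in HFC pig 6, but 68.7 CPM in LFC pig 7, below the 83.9 CPM of LFC pig 3. The median of GFAP in the 12 pigs without high markers was 18.6 CPM. AQP4, another of the markers, was 41.6 CPM in LFC pig 7 and at most 32.4 CPM in those 12 pigs. Endocrine markers summed to between 109200 and 153900 CPM in the 4 pigs and between 134300 and 235400 CPM in the others. The part of tissue composition in the HMGCS1 values was not tested, and in a whole gland fewer cells of a type and less RNA per cell cannot be told apart. Without the 4 pigs the log2 fold change of HMGCS1 was 0.011.

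**Figure D2:**
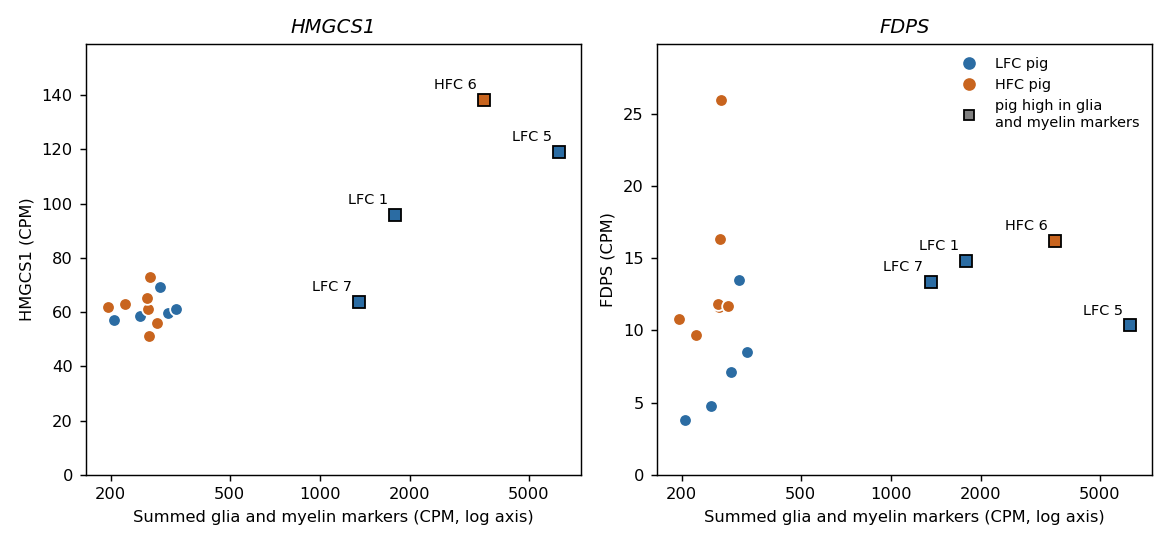
HMGCS1 (left) and FDPS (right), in CPM on linear axes, against the summed CPM of 10 glia and myelin markers on a log axis, 1 point per pig. The 3 pigs with the most HMGCS1 (95.8 to 138.1 CPM) are also those with the highest marker sums, whereas FDPS in the 4 pigs high in markers (10.3 to 16.2 CPM) lies within the range of the other pigs.

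IDI1 (chromosome 10, 68534517 to 68539280), the isomerase that supplies the starter unit for farnesyl diphosphate, was between 41.0 and 65.1 CPM in the LFC pigs with a median of 56.5. In the HFC pigs it was between 37.3 and 69.3 CPM with a median of 46.6. The groups overlapped over nearly their whole ranges, although only 3 of 8 HFC pigs were above the LFC median. Its log2 fold change was -0.10 (SE 0.13, 95% interval -0.39 to 0.18; adjusted p = 0.721, the quasi-likelihood test of edgeR, Benjamini-Hochberg method). The sign turned with 1 surrogate variable in the fit, to 0.069. WDR37 covers 13.2% of the IDI1 gene model.

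FDPS (ENSSSCG00000006512, chromosome 4, 94489208 to 94513941) joins the 5-carbon units to farnesyl diphosphate, the branch point of the pathway, and had the highest log2 fold change of the 6 enzymes. In the LFC pigs the lowest value was 3.77, the median 9.43 and the highest 14.8 CPM. In the HFC pigs the lowest was 9.66, the median 11.8 and the highest 25.9 CPM. All 8 HFC pigs were above the LFC median and 4 LFC pigs were below every HFC pig, but the other 4 LFC pigs lay among the HFC pigs. This was a log2 fold change of 0.57 (SE 0.27, 95% interval 0.0074 to 1.13), or 1.48-fold. It passed the unadjusted threshold narrowly, as the lower end of the interval shows, and not the adjusted one (adjusted p = 0.433, the quasi-likelihood test of edgeR, Benjamini-Hochberg method). The HFC pig with the highest FDPS was pig 5, one of the 3 pigs apart on the first component, and without that pig alone the log2 fold change was 0.42, no longer past the unadjusted threshold. Leaving out LFC pig 2, 4, 5, 6 or 8 or HFC pig 4 or 6 also took the unadjusted p above 0.05. Without the 3 pigs apart on the first component the log2 fold change was 0.25, not past that threshold. Of these 3, LFC pigs 4 and 6 were below every HFC pig and HFC pig 5 was the highest. Without the 4 pigs high in glia and myelin markers it was 0.87, past the threshold (adjusted p = 0.294, the quasi-likelihood test of edgeR, Benjamini-Hochberg method). Of these 4, LFC pigs 1, 5 and 7 had 14.8, 10.3 and 13.4 CPM, within the HFC range. Leaving them out left 5 LFC pigs, 4 of them below every HFC pig.

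The counts of FDPS also rest on how reads were assigned. Its gene model lies wholly inside that of RUSC1 (94489207 to 94514737), and libraries without strand cannot tell reads of overlapping exons apart. RUSC1, an adaptor protein, was between 66.0 and 101.6 CPM in the 16 pigs with a log2 fold change of 0.062 (SE 0.096). Over the 16 pigs Pearson's r between both genes was 0.019 (permutation p = 0.9435; adjusted over 4 overlapping pairs 0.9435) and Spearman's rho -0.168 (permutation p = 0.534; adjusted 0.844), and without the 2 pigs farthest from the FDPS median r was -0.153. FDPS had the fewest counts of the 6 enzymes, between 22 and 165 reads per pig, and a biological coefficient of variation of 0.363.

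FDFT1 (ENSSSCG00000026044, chromosome 14, 14967273 to 15104179), the squalene synthase that commits farnesyl diphosphate to sterols, was the steadiest of the 6. It was between 33.5 and 43.5 CPM in the LFC pigs (median 41.6) and between 37.6 and 55.1 CPM in the HFC pigs (median 43.0). Its biological coefficient of variation was 0.129, below the median of 0.171 over 2942 genes of like expression. The log2 fold change was 0.13 (SE 0.088, 95% interval -0.054 to 0.32; adjusted p = 0.514, the quasi-likelihood test of edgeR, Benjamini-Hochberg method), and in fold terms the interval was 0.963 to 1.24. HFC pig 6 was the highest at 55.1 CPM, and without the 4 pigs high in glia and myelin markers the log2 fold change was 0.033. CTSB, a lysosomal protease, covers 15.3% of the FDFT1 gene model.

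SQLE (ENSSSCG00000005970, chromosome 4, 14667848 to 14700221), the epoxidase that acts on squalene and is a control point of the route, was between 15.2 and 29.7 CPM in LFC (median 22.1) and between 18.4 and 30.4 CPM in HFC (median 24.3). The highest pig of each group, LFC pig 5 and HFC pig 6, was again high in glia and myelin markers, but SQLE in LFC pig 8, which was not, came close at 27.1 CPM. The log2 fold change was 0.13 (SE 0.14, 95% interval -0.16 to 0.43; adjusted p = 0.666, the quasi-likelihood test of edgeR, Benjamini-Hochberg method).

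LSS (ENSSSCG00000021418, on an unplaced scaffold, 519536 to 554726), the cyclase that makes lanosterol, split the LFC pigs. LFC pigs 2, 4, 6 and 8 had 46.5, 42.5, 41.1 and 40.6 CPM, whereas LFC pigs 1, 3, 5 and 7 had 71.5, 68.7, 66.9 and 76.1 CPM. The HFC pigs lay between 56.0 and 78.7 CPM with a median of 70.9. The lower LFC pigs were thus below every HFC pig and the higher ones within the HFC range. The labels name no batch that parts these LFC pigs. Over all pigs the log2 fold change was 0.26 (SE 0.14, 95% interval -0.046 to 0.56; adjusted p = 0.463, the quasi-likelihood test of edgeR, Benjamini-Hochberg method). Of the 4 pigs high in glia and myelin markers 3 were among the higher LFC pigs, and without the 4 pigs the log2 fold change was 0.47, past the unadjusted threshold (adjusted p = 0.259, the quasi-likelihood test of edgeR, Benjamini-Hochberg method). Without the 3 pigs apart on the first component, of which LFC pigs 4 and 6 were among the lower ones, it was 0.17, not past that threshold.

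DHCR7 (ENSSSCG00000021181, chromosome 2, 2357714 to 2394851), which reduces 7-dehydrocholesterol to cholesterol, was between 11.13 and 21.3 CPM in the LFC pigs (median 20.1) and between 16.2 and 24.9 CPM in the HFC pigs (median 20.4). Only LFC pig 8 at 11.13 CPM lay below the HFC range. The log2 fold change was 0.098 (SE 0.13, 95% interval -0.17 to 0.36; adjusted p = 0.722, the quasi-likelihood test of edgeR, Benjamini-Hochberg method), and 0.035 without that pig. NADSYN1, an enzyme of NAD synthesis, shares 39.4% of the DHCR7 gene model, and reads in overlapping exons cannot be told apart without strand.

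Of 12 other genes of the synthesis route 4 were higher in HFC and 8 higher in LFC, with a median log2 fold change of -0.032, and 0 passed the unadjusted threshold. The ends of the list were ACAT2, which joins acetyl-CoA units at the entry of the route, at 0.18 (SE 0.12, 95% interval -0.073 to 0.42) and MSMO1, a C4 demethylase, at -0.17 (SE 0.16, 95% interval -0.51 to 0.16). ACAT2 was between 15.97 and 26.3 CPM in LFC (median 17.5) and between 18.6 and 28.5 CPM in HFC (median 20.3). Its highest pigs were LFC pig 5 and HFC pig 6, those with the most HMGCS1 in their groups. MSMO1 was between 47.5 and 78.4 CPM in LFC (median 62.1) and between 38.5 and 87.6 CPM in HFC (median 51.3), so the HFC range contained that of LFC.

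**Figure D3:**
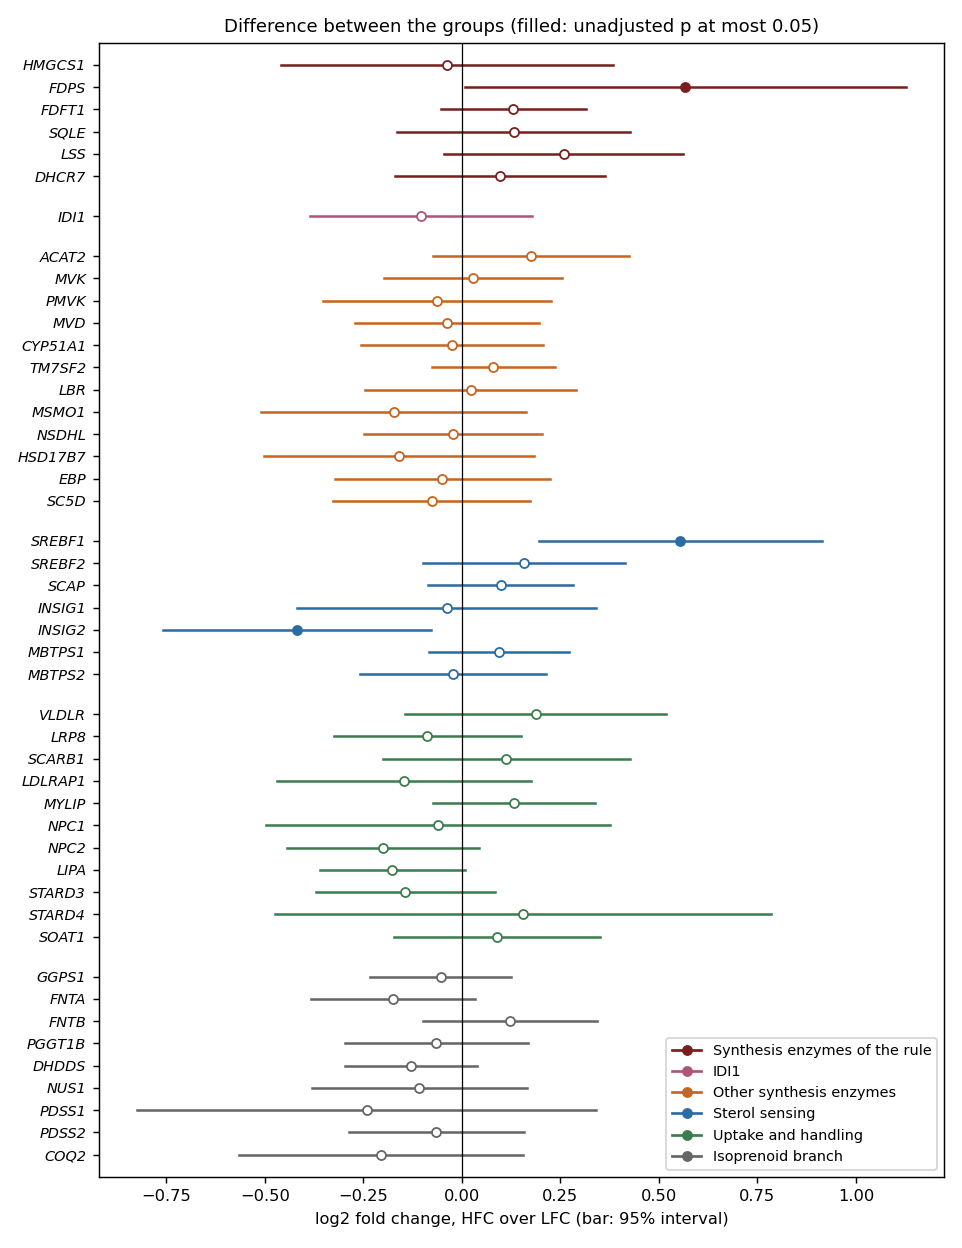
Log2 fold change, HFC over LFC, with its 95% interval for the 6 enzymes, IDI1 and the tested genes of 4 further lists (12 other synthesis enzymes, 7 sterol sensing genes, 11 uptake genes, 9 genes of the isoprenoid branch); filled points have an unadjusted p of at most 0.05. Intervals of most genes span 0, and the filled points are FDPS, SREBF1 and INSIG2.

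Among 7 sterol sensing genes 1 was higher in HFC and 1 higher in LFC at the unadjusted threshold, against 7.03% and 4.41% of all genes tested. SREBF1, whose SREBP-1 proteins control mainly fatty acid synthesis, was between 26.7 and 51.4 CPM in LFC (median 45.0) and between 34.4 and 81.6 CPM in HFC (median 64.3). Of the HFC pigs 6 were above every LFC pig, and pigs 2 and 5 were within the LFC range. Its log2 fold change was 0.55 (SE 0.17, 95% interval 0.20 to 0.91; adjusted p = 0.410, the quasi-likelihood test of edgeR, Benjamini-Hochberg method). It was between 0.49 and 0.67 with any 1 pig left out and 0.52 without the 3 pigs apart on the first component, all past the unadjusted threshold, but 0.25 and not past it with 1 surrogate variable. SREBF2, which encodes the SREBP that drives the cholesterol enzymes, had a median of 101.6 CPM in LFC and 117.5 CPM in HFC. The ranges, 87.9 to 136.2 and 82.7 to 154.8 CPM, overlapped almost fully, and the log2 fold change was 0.16 (SE 0.12; adjusted p = 0.553, the quasi-likelihood test of edgeR, Benjamini-Hochberg method).

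Of the INSIG genes, both encoding anchors of SCAP, INSIG2 passed the unadjusted threshold and INSIG1 did not; the difference between them was not tested. INSIG2 was between 17.6 and 35.5 CPM in LFC (median 21.9) and between 12.2 and 26.3 CPM in HFC (median 15.97), and the highest pigs, LFC pig 4 and HFC pig 5, were both apart on the first component. Its log2 fold change was -0.42 (SE 0.16, 95% interval -0.76 to -0.079; adjusted p = 0.413, the quasi-likelihood test of edgeR, Benjamini-Hochberg method). It was -0.40 and past the threshold without the 3 pigs apart, but -0.30 without LFC pig 4 and -0.17 with 1 surrogate variable, both not past it. INSIG1, itself a target of SREBP, had a log2 fold change of -0.039 (SE 0.18; adjusted p = 0.930, the quasi-likelihood test of edgeR, Benjamini-Hochberg method).

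Of 11 uptake and handling genes tested 0 passed the unadjusted threshold, with 5 higher in HFC, 6 higher in LFC and a median log2 fold change of -0.061. VLDLR, a lipoprotein receptor, had the highest log2 fold change in the list, 0.19 (SE 0.16, 95% interval -0.14 to 0.52). It was between 82.7 and 165.1 CPM in LFC (median 114.3) and between 92.2 and 176.3 CPM in HFC (median 129.0), ranges that overlapped for the most part. NPC2, which hands cholesterol on inside lysosomes, was at the other end with -0.20 (SE 0.12). Of 9 genes of the isoprenoid branch 8 were higher in LFC and 1 in HFC, with a median log2 fold change of -0.11 and 0 at the unadjusted threshold. The values ran from -0.24 (SE 0.28) for PDSS1, of ubiquinone synthesis, to 0.12 (SE 0.11) for FNTB, a subunit of farnesyltransferase.

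Single pigs stood out across the pathway. Over the 19 synthesis genes described HFC pig 6 was the highest HFC pig in 10 and the lowest in 0, while it was highest in 14.2% and lowest in 12.0% of all genes tested. The 10 genes included HMGCS1, FDFT1, SQLE, LSS and DHCR7 of the 6 enzymes. In the LFC group pig 5 was highest in 7 of the 19 and lowest in 0, against 10.8% and 9.34% of all genes tested, and HMGCS1, SQLE and IDI1 were among the 7. These pigs had the highest sums of glia and myelin markers in their groups. HFC pig 5 was highest in 6 of the 19, among them FDPS and IDI1, but this pig was also highest in 26.3% and lowest in 27.2% of all genes tested.

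**Figure D4:**
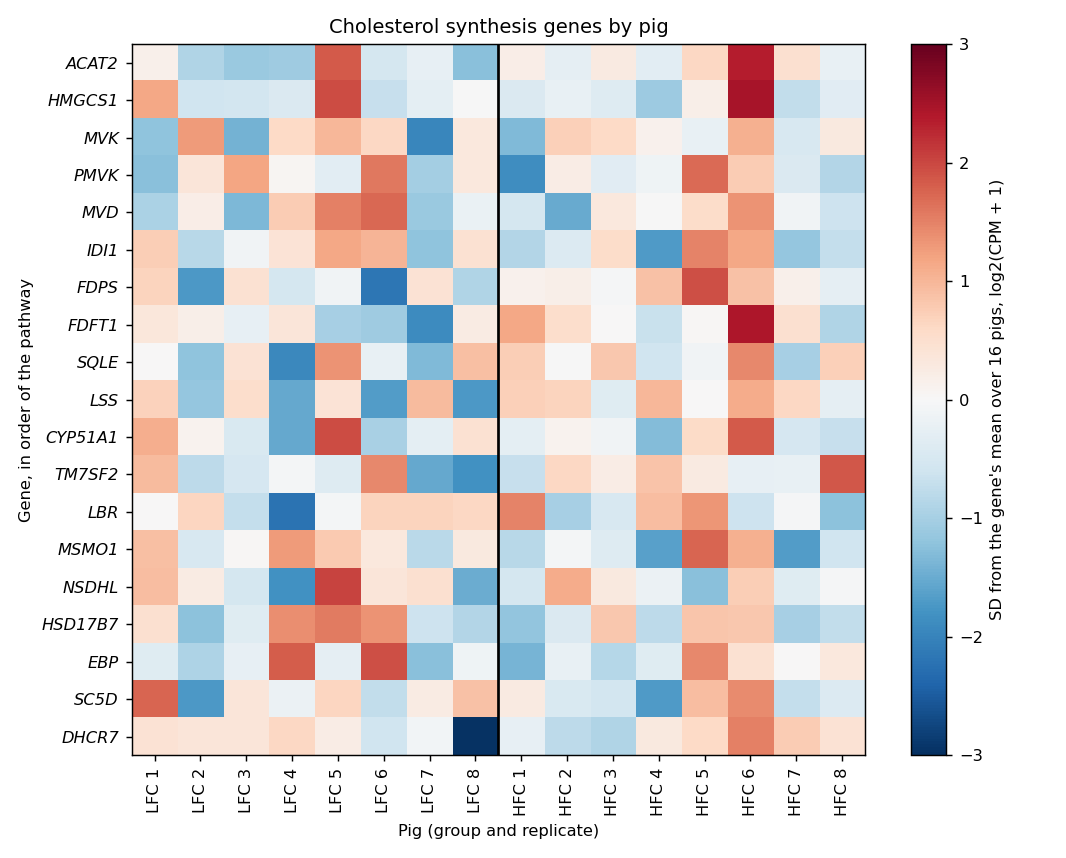
Expression of 19 cholesterol synthesis genes, in the order of the pathway, in 16 pigs, as SD from the mean of each gene over all pigs on the log2(CPM + 1) scale (colour scale from -3 to 3). The column of HFC pig 6 is the highest of its group in 10 of the genes, and that of LFC pig 5 in 7.

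The 6 enzymes moved together only loosely from pig to pig. Over the 15 pairs of the 6 the median Pearson r on log2(CPM + 1) was 0.284 in 16 pigs, with 14 of the 15 above 0. Much of this rested on HFC pig 6, without which the median was 0.0900, while leaving out any other single pig gave 0.249 to 0.338. Over all pairs of genes tested the median r was -0.004, and 25.6% of them had an r of at least 0.284. In the 12 pigs without high glia and myelin markers the median over the 15 pairs was 0.196, with 10 above 0, and 35.0% of all pairs of genes reached it. Genes and pairs from the same libraries are not independent, and these shares are descriptions. Pairs with HMGCS1 were not read over all pigs, because 3 pigs stood apart. In the 12 other pigs r with HMGCS1 was 0.394 for SQLE, 0.301 for FDFT1, 0.236 for FDPS, -0.250 for LSS and -0.380 for DHCR7, with Spearman's rho of 0.594, 0.231, 0.0979, -0.217 and -0.273 in that order. None passed a permutation test after adjustment over 15 pairs, the smallest adjusted p of these 5 being 0.665 for r and 0.227 for rho. With IDI1, beside the 6 enzymes, HMGCS1 had an r of 0.661 in the 12 pigs (permutation p = 0.0192). Spearman's rho was 0.552 (permutation p = 0.0672). Adjusted with the pairs of IDI1 included, these permutation p-values were 0.201 and 0.282.

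FDPS and LSS, with FDFT1 and SQLE between them in the pathway, had the highest r of the 15 pairs, and the same 4 pigs were lowest in both. LFC pigs 2, 4, 6 and 8 had between 40.6 and 46.5 CPM of LSS and between 3.77 and 8.52 CPM of FDPS, each below the other 12 pigs, which started at 56.0 CPM of LSS and 9.66 CPM of FDPS. Since these 4 pigs were separate from the rest, r is given for the other 12 pigs. There Pearson's r was 0.198 (permutation p = 0.544) and Spearman's rho 0.511 (permutation p = 0.0936), and r was 0.761 without the 2 pigs farthest from the FDPS median. Of those, HFC pig 5 had 25.9 CPM of FDPS at 60.9 CPM of LSS. The gene closest to LSS over 16 pigs was LENG8 (r = 0.928) and the closest to FDPS was MATK (r = 0.876), neither of the cholesterol pathway.

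**Figure D5:**
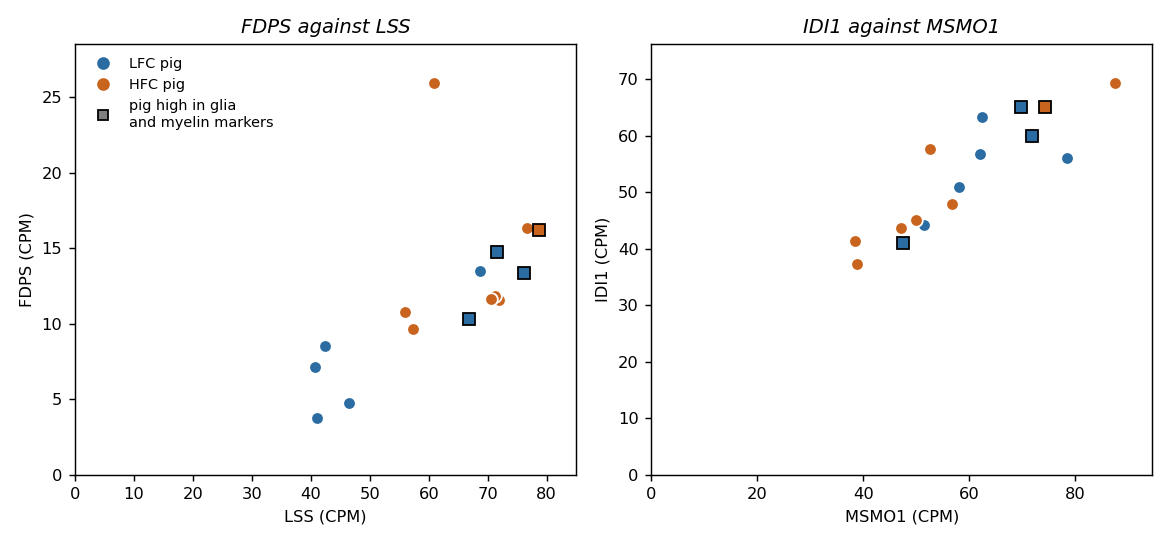
FDPS against LSS (left) and IDI1 against MSMO1 (right), CPM on linear axes from 0, 1 point per pig. On the left 4 LFC pigs lie at or below 46.5 CPM of LSS and 8.52 CPM of FDPS. On the right the pigs of both groups lie along 1 line (r = 0.897, computed on log2(CPM + 1)).

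For IDI1 the gene with the highest r of 12673 named genes was MSMO1, with r = 0.897 over 16 pigs and 0.874 over the 12 pigs without high glia and myelin markers. For the mean of the 6 enzymes, each standardised over pigs, the closest genes were COX3 (r = 0.896) and ATP6 (r = 0.883), encoded in the mitochondrial genome, and GAD2, GABBR1 and RIMS3, which serve GABA signalling and synapses. LRRTM2, KIF21B, ADCYAP1R1, ND2 and FADS2, a fatty acid desaturase, followed with r between 0.808 and 0.823. Over the 12 pigs without high glia and myelin markers the r of these 10 genes was lower, from 0.516 for FADS2 to 0.780 for COX3. ACAT2 ranked 12 of 12668 named genes with r = 0.805 over 16 pigs and 0.627 over the 12. The 3 genes closest to HMGCS1 were PDYN, SLC1A3 and FGFR3, with r between 0.929 and 0.961 over 16 pigs, the latter 2 of which are astrocyte genes. In the 12 pigs without high glia and myelin markers these values were 0.781, 0.325 and -0.316. CYP51A1, the demethylase that follows LSS, ranked sixteenth for HMGCS1 with 0.901, and kept 0.718 in the 12 pigs. MSMO1 ranked 478 for HMGCS1 with 0.602, and had 0.711 in the 12 pigs. ACAT2, INSIG1 and SREBF2 had 0.0787, 0.0691 and -0.447 with HMGCS1 there. For SQLE the closest genes were RAP1GDS1, PHYHIPL and CHL1 (0.737 to 0.795). INSIG1 ranked 29 (0.642) and CYP51A1 39 (0.627), with 0.399 and 0.476 in the 12 pigs, and MSMO1 ranked 2587. For FDFT1 the closest genes were SOX18, HOMER1 and FMO5 (0.703 to 0.759), with SREBF2 at rank 45 (0.576) but CYP51A1 at 883. For DHCR7 they were SCMH1, ARSL and EGF (0.765 to 0.825). For FDPS REXO5 and LUC7L3 followed MATK, and for LSS ARHGAP33 and MLLT6 followed LENG8. Of ACAT2, MSMO1, CYP51A1, SREBF2 and INSIG1, the closest was ACAT2 at rank 635 for FDPS and 675 for DHCR7. The closest of them to LSS was SREBF2 at rank 1212, while MSMO1 ranked 8813 (r = -0.276).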

How the data were processed

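The authors deposited counts of reads per gene and pig as whole numbers without normalization. Per the paper's methods, single-end reads from TruSeq v2 libraries, which do not keep the strand, were trimmed with Flexbar and quantified with RSEM on Sscrofa11.1 with the Ensembl annotation. The submitters' processing notes name CASAVA 1.8.2, FastQC, RSEM, STAR and DESeq2. How RSEM's estimates became whole numbers is not given in the sources used here. From the deposited comparison only identifiers, symbols and gene positions (start and end) were used; its group means, fold changes and p-values were not. RIN values were above 7 per the labels.

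Groups were compared with edgeR 4.0.16 (R 4.3.3). Counts were filtered by expression within groups (13621 genes kept, all 6 enzymes and IDI1 among them), scaled by TMM and tested with quasi-likelihood F tests, with p-values adjusted by the Benjamini-Hochberg method. Standard errors were taken from the F statistic. Correlations used log2(CPM + 1), two-sided with 100000 resamples. Alternatives were DESeq2 1.42.0, limma 3.58.1 voom with quality weights, other scalings and filters, robust estimation, 1 surrogate variable (sva 3.50.0), a prior count of 0.5, a pseudocount of 0.1, a block by replicate number and leaving out each pig. Levels and correlations were computed with pandas 2.3.3, scipy 1.17.1 and numpy 2.4.6 in Python 3.11.15. The model and the permutation test were tested on simulated data.

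Depth was 6010629 to 11794256 counts per pig. The common biological coefficient of variation was 0.249, and chi-square per degree of freedom between pigs of a group was at least 11.8, so no 2 were near copies. Each sample was taken as 1 pig. The p-values of edgeR set a group difference against the spread between these pigs, and those of correlations come from permuting the pigs. Genes were named by 9550 deposited symbols, a reference table of gene names (5875) and position (326). Named in the text were the enzymes, SREBF1, SREBF2, INSIG1, every list gene at an unadjusted p of at most 0.05, the ends of each list, the 10 genes closest to the mean of the enzymes and the 3 closest to each. CYP51A1, the overlapping genes and the markers MBP, GFAP, AQP4, GH1, HBB and VWF were named after their values were seen. The enzymes and lists were chosen with earlier results of these data known. Some genes that these rules would name, and some of the lists, are not reported here. Promoter motifs were not analysed here.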

Additional observations from a re-analysis of the deposited data

Results flagged for a closer look

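In groups of 8 pigs, 34 sets of values (17 named genes in 2 groups) were examined for a pig whose gap to its nearest neighbour takes an unusually large share of the range of its group. For independent and normally distributed values chance alone gives about 1 such set in 20. These sets share pigs and hold CPM without logs, so whether their number exceeds chance was not tested. In 7 sets a pig stood apart. HMGCS1 was 138.1 CPM in HFC pig 6, with the next HFC pig at 72.9 CPM, and INSIG1 in the same pig was 19.8 CPM, with the next at 13.2 CPM. ACAT2 was 26.3 CPM in LFC pig 5, with the next LFC pig at 20.1 CPM, and 28.5 CPM in HFC pig 6, with the next HFC pig at 21.6 CPM. HFC pig 6 and LFC pig 5 were high in glia and myelin markers (3549 and 6315 CPM), and the part of these in the values was not tested. FDPS was 25.9 CPM in HFC pig 5, with the next at 16.4 CPM, and INSIG2 was 35.5 CPM in LFC pig 4, with the next at 25.9 CPM. Both of these pigs were apart on the first principal component. DHCR7 was low at 11.13 CPM in LFC pig 8, with the next at 17.1 CPM.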

How the results depend on the processing

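No enzyme was called at the adjusted threshold under any alternative run. The log2 fold changes of FDPS, FDFT1, SQLE, LSS and DHCR7 kept their sign throughout. HMGCS1 ran from -0.25 to 0.098 and INSIG1 from -0.18 to 0.038 with 1 pig left out; HMGCS1 was 0.011 without the 4 pigs high in glia and myelin markers, and IDI1 was 0.069 with 1 surrogate variable. All genes called were 29 by DESeq2 and 0 otherwise, also by limma voom. Genes at an unadjusted p of at most 0.05 (1559) were 2540 by limma voom, 625 with 1 surrogate variable and 989 (without HFC pig 4) to 3514 (without HFC pig 5) with 1 pig left out. Of the 6 enzymes (1 at that threshold), 0 passed by limma voom, upper-quartile and total library scaling and without the 3 pigs apart on the first component, 2 without the 4 pigs high in markers, and 0 to 2 with 1 pig left out. Other synthesis genes (0) were 1 by limma voom, with 1 surrogate variable and without the 4 pigs high in markers, and 0 to 1 with 1 pig left out. Sterol sensing genes (2) were 1 with the replicate block, 0 with 1 surrogate variable and 1 to 3 with 1 pig left out. Uptake genes (0) were 1 by DESeq2, upper-quartile scaling and 1 surrogate variable and 0 to 1 with 1 pig left out, and isoprenoid genes (0) were 1 by limma voom and 0 to 1 with 1 pig left out. The cause of these shifts was not tested. The median r of the enzymes was 0.476 with total library scaling and 0.0900 (without HFC pig 6) to 0.338 with 1 pig left out. Pigs with the same replicate number share only a number: their deviations correlated between -0.343 and 0.374, in 3 of 8 above 0.1, and 0 of 8 LFC pigs correlated best with their own number; the replicate block gave 1404 genes at the unadjusted threshold and a log2 fold change of FDPS of 0.62. FDPS had 22 to 165 reads per pig, the fewest of the 6 enzymes.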
